A study of Mus musculus with 12 samples.

Results

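Transcripts of 10 RNA-binding proteins of muscle splicing were followed during the conversion of mouse fibroblasts to muscle: Rbm24, Rbm38, Rbm20, Mbnl1, Mbnl2, Mbnl3, Celf1, Celf2, Rbfox2 and Ptbp1. They were chosen by name, and a probe was theirs where the RefSeq accession that the array design gives for it maps to one of the 10 symbols. This gave 16 probes for 9 of the 10 genes, out of 41174 probes on the array; no probe was matched to Rbm20, which is not analysed here. Of the 9 genes, 8, with 14 probes, were among the 12300 genes and 24000 probes that were tested. In no group were the 2 probes of Mbnl3 measured above background on all 3 arrays, and they were left out of the tests.

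The samples are 12 single-colour Agilent mouse arrays, in 4 groups of 3, of C3H/10T1/2 cells, a mouse fibroblast line that MyoD can turn into muscle. A line with a stable hairpin against the homeobox gene Six4 (shSix4) and a control hairpin line (shLuc) were each transduced with a pBABE retrovirus that was empty or carried MyoD tagged with Flag and myc. All 4 groups were then kept for 24 h under differentiation conditions. They are called shLuc empty, shLuc MyoD, shSix4 empty and shSix4 MyoD. Every group thus carries a hairpin and a retroviral vector, and the added MyoD comes from the vector. Whether the cells' own gene contributes to it was not tested. The sources used here do not give whether the stable lines are clones or pools, nor whether the 3 replicates are separate cultures; the p-values then reflect the spread of these arrays alone, and that spread may be technical. Replicate 1, 2 and 3 of every group lie on slides 1, 2 and 3.

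Muscle cells do not only switch on muscle genes; they also splice shared genes into muscle forms. RBM24, RBM20 and the MBNL and RBFOX proteins bind near alternative exons and favour many of the muscle forms, while PTBP1 represses such exons in non-muscle cells and CELF proteins often act opposite to MBNL proteins on the same exons. RBM38, the closest relative of RBM24, is best known as a p53 target that also binds and stabilises transcripts, and MBNL1 is the protein trapped by repeat RNA in myotonic dystrophy. The arrays read how much of each transcript is present at its probe. They do not read splicing or protein.

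The bases before the starts of the 3 genes that rose with MyoD in shLuc are shown because MyoD binds the E-box, written here CANNTG with any base at N. Promoter windows of 300 bases, 250 before and 50 after the start, from RefSeq on GRCm38.p6, were matched to 8 of the 10 genes, with 13 windows in all; Rbm20 and Rbfox2 had none. Only the 250 bases before the start are printed, 5′ to 3′ on the strand of the gene, with CANNTG in capitals. Rbm24 lies at chr13:46418050-46418299 on the plus strand, Rbm38 at chr2:173021652-173021901 on the plus strand, and the first of 5 Celf2 windows at chr2:7396199-7396448 on the minus strand.
Rbm24: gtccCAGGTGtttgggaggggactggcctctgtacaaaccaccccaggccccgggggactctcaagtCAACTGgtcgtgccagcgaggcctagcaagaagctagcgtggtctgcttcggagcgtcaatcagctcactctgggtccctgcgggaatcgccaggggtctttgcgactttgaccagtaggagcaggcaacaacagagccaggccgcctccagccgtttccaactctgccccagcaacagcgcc
Rbm38: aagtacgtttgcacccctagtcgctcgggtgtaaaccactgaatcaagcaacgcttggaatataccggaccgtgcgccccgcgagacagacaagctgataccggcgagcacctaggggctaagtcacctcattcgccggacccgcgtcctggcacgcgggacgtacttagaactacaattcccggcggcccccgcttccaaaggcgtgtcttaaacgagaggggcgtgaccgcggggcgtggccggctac
Celf2: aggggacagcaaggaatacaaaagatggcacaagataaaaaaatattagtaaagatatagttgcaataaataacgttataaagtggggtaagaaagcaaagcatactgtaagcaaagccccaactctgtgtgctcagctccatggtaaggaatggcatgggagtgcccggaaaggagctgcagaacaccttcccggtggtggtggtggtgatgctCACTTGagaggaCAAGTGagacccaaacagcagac
The Rbm24 window held CAGGTG at -246 and CAACTG at -183 from the start. The Rbm38 window held no CANNTG in its 300 bases. The first Celf2 window held CACTTG at -35 and CAAGTG at -23, and the 5 Celf2 windows held 2, 2, 1, 0 and 1 matches, the first pair of windows sharing the same 2. Such matches are common. CANNTG reads the same on both strands and was found in 72.3% of 32851 promoter windows of this length, with 2 or more in 39.6%. The narrower E-box CAGCTG, found in 16.3% of all windows, occurred among the members only at +40 of Ptbp1, where it also counts as 1 of that window's 3 CANNTG matches. The motif TCAGGTT of the family that SIX4 belongs to (4.07% of all windows, both strands) and the MEF2 motif, CTA and TAG with 4 bases between them (3.69%), were in none of the 13 windows. A match is a stretch of letters and no measured binding site, and which of the Celf2 starts is used in these cells was not measured.

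With MyoD in shLuc, 3 of the 8 tested factors rose and none fell: Rbm24, Rbm38 and Celf2. In shSix4, Rbm24 and Celf2 rose, 2 of 8, and none fell. Rbm24 was among the tested factors only because it was well above background in the MyoD groups. Across all 12300 genes, 4.72% were called higher in shLuc and 2.79% in shSix4, and 1.56% and 0.106% lower (limma, Benjamini-Hochberg adjusted p under 0.05). The arrays of the 2 groups did not overlap for 3 factors higher and 3 lower in shLuc, beside 10.2% and 16% of all genes, and for 2 higher and 1 lower in shSix4, beside 7.19% and 7.39%. The median log2 change of the 8 factors was 0.30 in shLuc and 0.24 in shSix4, beside -0.14 and -0.06 over all genes. Of the 8, 4 had a positive and 4 a negative estimate in each line.

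The conversion itself can be read from muscle genes fixed as a check list. All 10 of them, Myog and Myh3 among them, were higher with MyoD in each line (limma). Myog, the regulator that follows MyoD, rose by 13.85 ± 0.31 (SE) on the log2 scale in shLuc, against an empty-vector mean that rests on 1 measured array of 3, and at least 4590-fold in shSix4. Myh3, embryonic myosin heavy chain, rose at least 2310-fold in shLuc and at least 295-fold in shSix4. Where a group was not well above background on any of its arrays, a fold is given as such a lower bound. On each dim array the probe then takes its own signal or the lowest signal of any probe well above background, whichever is larger, and the bright mean is set against the mean of those values. The 10 fibroblast markers were well above background on all 12 arrays, with summed signals of 1310 to 2490 times the array's 75th percentile over the 12 arrays. None was called in any comparison, though all 10 had a negative estimate with MyoD in each line, and with the replicate number as a block 4 were called lower in shLuc and 1 higher in shSix4 MyoD than in shLuc MyoD, beside 15.7% and 1.75% of all genes. Of the endothelial markers, 4 of 5 were above background on no array, while Tek was so on 11 of 12. Other lists were measured more widely. Above background on all 12 arrays were 4 of 5 smooth muscle, 3 of 5 epithelial and 2 of 6 leukocyte markers. The same held for 1 of 8 cardiomyocyte, 1 of 6 neuronal and 1 of 5 adipocyte markers.

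**Figure D1:**
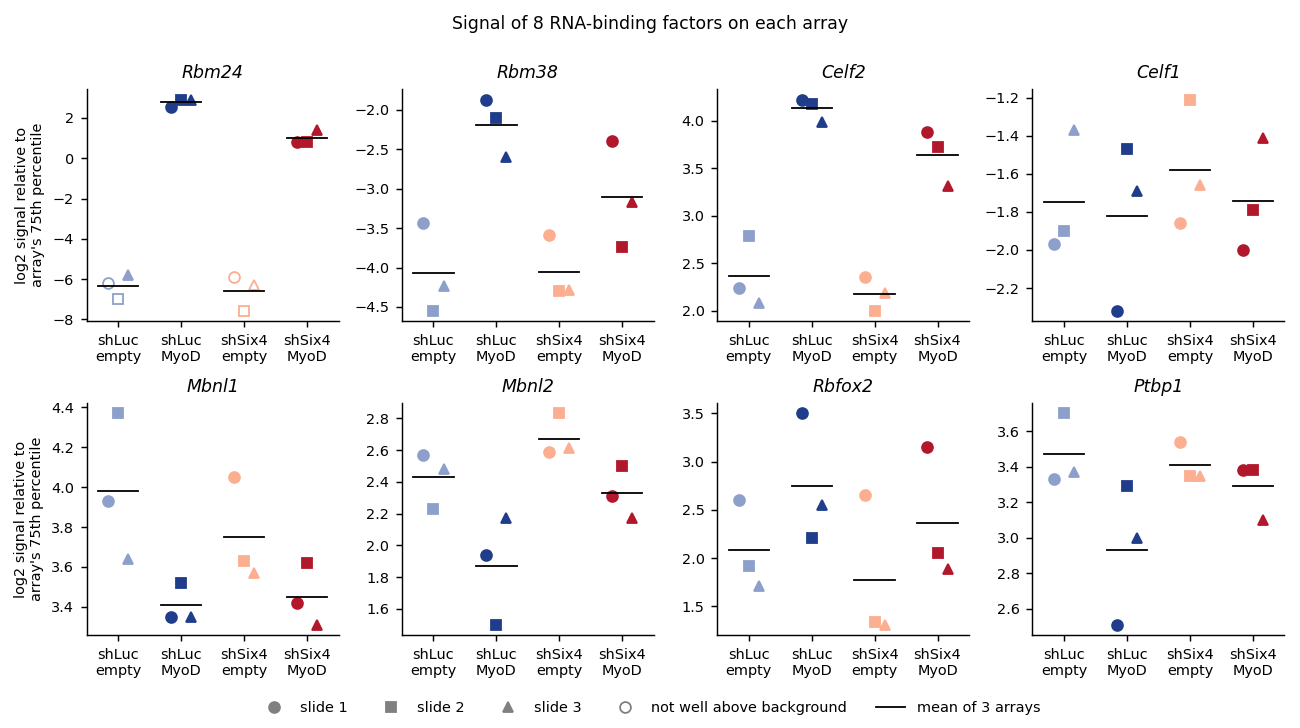
Log2 signal relative to the array's 75th percentile (y axis) of the probe that stands for each of the 8 tested factors, on each of the 3 arrays of the 4 groups (x axis); shapes are slides, lines are group means and open symbols are arrays where the probe was not well above background. Rbm24 with MyoD sits at 2.54 to 2.91 in shLuc and 0.81 to 1.39 in shSix4 and below -5.7 with the empty vector, while the y axes of the other panels span far less and Rbfox2 is highest on slide 1 in each group.

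Rbm24, an RNA-binding protein of heart and skeletal muscle, went from near background to a clear signal. Levels are given as log2 signal minus the array's 75th percentile. By the brighter of its 2 probes, A_52_P920158, it stood at -6.19, -6.99 and -5.78 on slides 1, 2 and 3 of shLuc empty and at 2.54, 2.87 and 2.91 in shLuc MyoD. It stood at -5.89, -7.58 and -6.28 in shSix4 empty and at 0.81, 0.83 and 1.39 in shSix4 MyoD. With the empty vector only 1 of the 6 arrays, shLuc replicate 3, was well above background, while all 6 MyoD arrays were, and no MyoD array overlapped an empty one.

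The rise of Rbm24 with MyoD was 9.09 ± 0.42 (SE, n = 3 against 3) in shLuc, with an adjusted p of 1.47e-07 by limma. This is 547-fold on the group means, of which the empty mean rests on 1 measured array of 3. In shSix4 the change was 7.59 ± 0.42 with an adjusted p of 1.10e-06, at least 84.0-fold. The second probe, A_51_P487832, read the same transcript: -7.81, -6.99 and -8.04 in shLuc empty, 0.63, 0.92 and 0.61 in shLuc MyoD. In shSix4 it read -7.04, -7.56 and -7.73 with the empty vector and -1.67, -1.10 and -1.57 with MyoD. It was not well above background on any empty-vector array, and its rise was at least 102-fold in shLuc and at least 15.3-fold in shSix4, with adjusted p of 4.70e-08 and 7.00e-07 over the 24000 probes, of which 4.39% and 2.17% were called in these comparisons. The 2 Rbm24 probes entered the tests only through the MyoD groups, where they were high. For them the filter and the test are thus not independent. With normexp background correction, which adds an offset of 50 to every signal, the brighter probe rose by 4.85 and 4.02, still called, and the other by 3.17 and 2.04 without a call (adjusted p = 0.196 and 1). More converted cells and more transcript per cell cannot be told apart in these bulk samples, here or in any result that follows.

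Rbm24 was lower in shSix4 MyoD than in shLuc MyoD on every slide, by -1.73, -2.04 and -1.53 with the brighter probe and by -2.30, -2.02 and -2.18 with the other. The ranges of the 3 arrays did not overlap with either probe. By the brighter probe the difference was -1.76 ± 0.42, which is 3.40-fold lower, and did not pass the test over genes (adjusted p = 0.144, 95% confidence interval -2.70 to -0.83); with the replicate number as a block it did (adjusted p = 0.0204), as it did with the mean of its probes (-1.97, adjusted p = 0.0123). By the other probe it was -2.17 ± 0.30, which passed over all probes (adjusted p = 0.0321; 0.00874 with the block), as did 0.167% of them. That call was kept without shLuc empty replicate 2 or shSix4 empty replicate 1 and lost without any other array, with adjusted p up to 0.124. It was also lost with normexp background, no filter on dim probes, median scaling or limma-trend (adjusted p up to 0.901). The MyoD responses of the lines differed by an estimate of -1.5 ± 0.60 and -2.34 by the respective probes, with adjusted p of 1 and 0.443; these estimates rest on empty-vector arrays of which 1 of 6 and 0 of 6 were well above background, so their size is not measured. Across all genes, 28 of 12300 (0.228%) differed between the lines with MyoD, and 0 (0%) differed in their response by limma, where 249 genes (2.02%) had an unadjusted p under 0.05.

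Other measures moved with the lower Rbm24 of shSix4 MyoD, and their part in it was not tested. All 10 conversion markers had a negative estimate in shSix4 MyoD against shLuc MyoD, with 1 of them, Myh3, called (-2.40, adjusted p = 0.0304, a call lost in 11 of 20 alternatives); with the block 6 of the 10 were called lower, beside 2.59% of all genes. Their summed signal was 188 to 323 times the array's 75th percentile against 534 to 841. Myh6, a cardiac myosin heavy chain from the cardiomyocyte list, was also lower there, by -3.09 ± 0.50 (adjusted p = 0.0365, limma; 0.0101 with the block), with 2 of the 3 shSix4 MyoD arrays well above background. Myod1 itself, by a probe whose relation to the viral transcript is not given, was at 0.07, -0.23 and 1.23 in shLuc MyoD and at -2.17, -0.86 and -0.23 in shSix4 MyoD; the difference of -1.45 ± 0.81 did not pass the test (adjusted p = 0.837). Its values from replicate 3 of each empty-vector group were dropped because the spots were marked as outliers. Against the empty vector, Myod1 rose by 4.03 in shLuc (adjusted p = 0.0315, limma), a call kept in 15 of 22 alternatives. In shSix4 its estimate was 2.10 (adjusted p = 0.482, limma), which was called in 0 of 22. Six4, the gene under the hairpin, was at -1.45, -1.69 and -0.85 in shLuc MyoD and at -3.03, -2.93 and -1.54 in shSix4 MyoD. Its difference of -1.17 ± 0.49 was not called (adjusted p = 0.558) except with the block (adjusted p = 0.0424), so the labels' knockdown was a reduction in the estimate with ranges that overlapped. With the empty vector Six4 was at -2.62, -2.9 and -1.64 in shLuc and at -4.1, -3 and -2.82 in shSix4. It was thus lower in shSix4 on each slide with either vector. With the empty vector, Rbm24 was near background in each line and no fold is given between them.

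Rbm38, the relative of Rbm24, had 1 probe, which was well above background on all 12 arrays. Its level was -3.44, -4.55 and -4.23 in shLuc empty and -1.87, -2.10 and -2.60 in shLuc MyoD. It was -3.59, -4.30 and -4.28 in shSix4 empty and -2.39, -3.74 and -3.17 in shSix4 MyoD. The shLuc groups did not overlap, and the shSix4 groups did, because replicate 2 with MyoD lay below replicate 1 with the empty vector.

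Rbm38 rose by 1.88 ± 0.39, or 3.69-fold, in shLuc (adjusted p = 0.0137, limma). In shSix4 the estimate was 0.96 ± 0.39, or 1.94-fold (adjusted p = 0.400, interval 0.10 to 1.81), and each slide gave a positive difference, of 1.2, 0.56 and 1.11; with the block it was called (adjusted p = 0.0209). Rbm38 was lower in shSix4 MyoD than in shLuc MyoD by -0.52, -1.64 and -0.56 on the 3 slides. The mean of -0.91 ± 0.39 did not pass the test (adjusted p = 0.587; 0.0406 with the block), nor did the difference of the responses, -0.93 ± 0.55 (adjusted p = 1). The call in shLuc was lost without shLuc empty replicate 2 (1.64, adjusted p = 0.0709), shLuc empty replicate 3 (1.80, 0.0530) or shLuc MyoD replicate 1 (1.72, 0.0647), and with normexp background the change fell to 0.56 (adjusted p = 1).

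Celf2, a CUG-binding splicing factor of brain, heart and muscle, rose with MyoD in each line. Its probe A_51_P182471 read 2.24, 2.79 and 2.08 in shLuc empty and 4.22, 4.17 and 3.98 in shLuc MyoD. In shSix4 it read 2.36, 2.00 and 2.19 with the empty vector and 3.88, 3.72 and 3.31 with MyoD. Every MyoD array lay above every empty-vector array. The rise was 1.76 ± 0.23 (3.38-fold, adjusted p = 0.000533, limma) in shLuc and 1.45 ± 0.23 (2.74-fold, adjusted p = 0.00339) in shSix4. The calls were lost with normexp background (1.75 and 1.51, adjusted p = 0.0565 and 0.177).

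The 2 further probes of Celf2 gave rises of the same sign. Probe A_52_P243542 changed by 2.43 ± 0.26 in each line, from between -3.66 and -2.08 with the empty vector to between -0.98 and -0.02 with MyoD (adjusted p over probes 0.000172 in shLuc and 0.000273 in shSix4). Probe A_52_P100909, assigned to another Celf2 transcript record, changed by 1.74 ± 0.33 in shLuc (adjusted p = 0.00963) and by 1.33 ± 0.33 in shSix4, where it was not called (adjusted p = 0.0782). It was called there with the block (adjusted p = 0.0104), with median scaling (0.0354) and without shSix4 MyoD replicate 2 (1.60, adjusted p = 0.0374). It is the Celf2 probe used from the authors' deposited table, where limma called the rise in shLuc but not that of 1.33 in shSix4 (adjusted p = 0.0645). With normexp background neither further probe was called in either line. Between the lines with MyoD, Celf2 was lower in shSix4 on each slide by A_51_P182471 (-0.34, -0.45 and -0.67), and the ranges did not overlap. A_52_P243542 was also lower on each slide (-0.63, -0.76 and -0.77), without overlap, whereas A_52_P100909 gave -0.29, -0.87 and 0.16 with ranges that overlapped. By A_52_P243542 the estimate was as low with the empty vector (-0.73 ± 0.26, ranges overlapping) as with MyoD (-0.72 ± 0.26). Its difference of responses was 0.01 ± 0.37. With the empty vector A_51_P182471 gave -0.18 ± 0.23 and A_52_P100909 gave 0.07 ± 0.33. The mean by A_51_P182471 of -0.49 ± 0.23 did not pass the test (adjusted p = 0.653, interval -0.99 to 0.01).

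Celf1, the paralog that is widely expressed and binds the same GU-rich sequences, gave no call. Its level lay between -2.32 and -1.21 on the 12 arrays, and all 4 groups overlapped. The change with MyoD was -0.08 ± 0.28 in shLuc (interval -0.70 to 0.54) and -0.16 ± 0.28 in shSix4 (-0.78 to 0.46), with adjusted p of 0.921 and 0.997 by limma. A change of the size of that of Celf2 lies outside these intervals, while changes up to their ends lie within them.

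**Figure D2:**
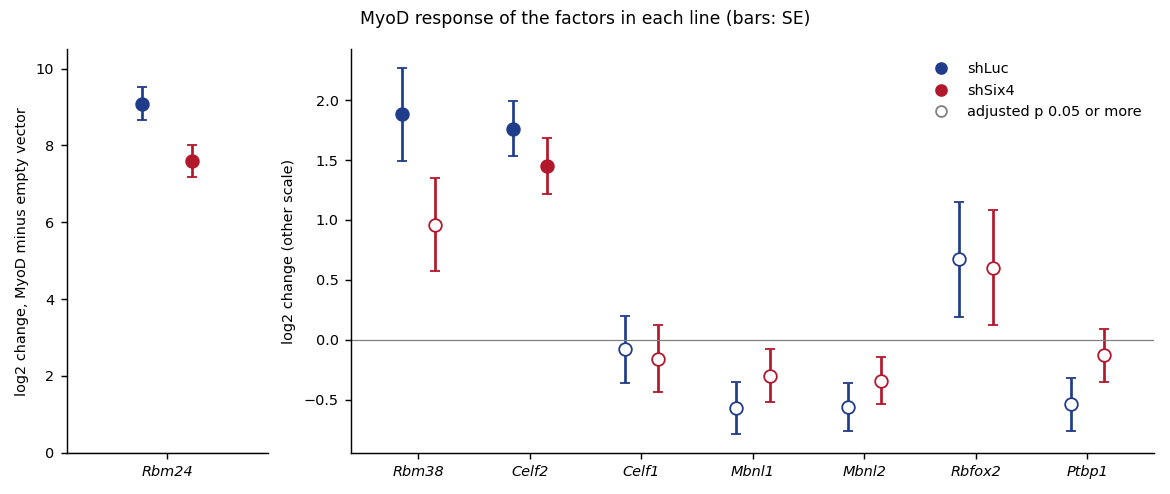
Log2 change from empty vector to MyoD (y axis) of each factor (x axis) in shLuc (blue) and shSix4 (red), with Rbm24 on its own scale at the left; bars are standard errors of the limma fit with 3 arrays a group, and filled points have an adjusted p under 0.05. Filled points are Rbm24 (9.09 and 7.59) and Celf2 (1.76 and 1.45) in each line and Rbm38 (1.88) in shLuc, and Mbnl1, Mbnl2 and Ptbp1 sit below 0 as open points in each line. The height of Rbm24 rests on empty-vector arrays of which 1 of 3 in shLuc and 0 of 3 in shSix4 were well above background.

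Mbnl1 and Mbnl2, which drive the switch to adult muscle splice forms, did not rise. Mbnl1 read 3.93, 4.37 and 3.64 in shLuc empty against 3.35, 3.52 and 3.35 in shLuc MyoD. It read 4.05, 3.63 and 3.57 in shSix4 empty against 3.42, 3.62 and 3.31 in shSix4 MyoD. The shLuc MyoD arrays were all below the shLuc empty arrays, whereas the shSix4 groups overlapped. The change of -0.57 ± 0.22 in shLuc was not called (adjusted p = 0.173) without the block and was called with it (adjusted p = 0.0344); under the block 15.7% of all genes were called lower in this comparison. In shSix4 the change was -0.30 ± 0.22 (adjusted p = 0.836).

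Mbnl2 had 2 probes, which gave nearly equal changes. The brighter, A_51_P494361, read 2.57, 2.23 and 2.48 in shLuc empty and 1.94, 1.5 and 2.17 in shLuc MyoD. In shSix4 it read 2.59, 2.83 and 2.61 with the empty vector and 2.31, 2.50 and 2.17 with MyoD. MyoD arrays lay below empty-vector arrays in each line. The change was -0.56 ± 0.20 in shLuc and -0.34 ± 0.20 in shSix4 (adjusted p = 0.152 and 0.725), and by the second probe it was -0.55 ± 0.18 and -0.33 ± 0.18 (adjusted p = 0.147 and 0.779 over probes). The shLuc change was called with the mean of the probes (-0.56, adjusted p = 0.0491) and, for the second probe, with the block (adjusted p = 0.0257). By this brighter probe the shSix4 arrays of Mbnl2 all lay above the shLuc arrays in each vector group, on slide 3 with MyoD by 0.01. The mean differences were 0.46 ± 0.20 with MyoD and 0.25 ± 0.20 with the empty vector, neither of which passed the test (adjusted p = 0.607 and 0.999, limma). By the second probe the ranges of the lines overlapped with either vector. Its differences were 0.28 ± 0.18 with MyoD and 0.05 ± 0.18 with the empty vector, and neither was called.

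Mbnl3, the family member that is found in proliferating myoblasts and placenta and slows muscle differentiation, was near background. Probe A_51_P485985 was well above background on 2 of 3 shLuc empty arrays, on 1 of 3 shLuc MyoD arrays and on none of the 6 shSix4 arrays. Its values ran from -7.54 to -5.17. The other probe, A_52_P411264, was not well above background on any array. No fold is given for Mbnl3.

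Rbfox2, a splicing activator of muscle and many other tissues, varied more between slides than between groups. By A_52_P310530 it read 2.60, 1.92 and 1.71 in shLuc empty and 3.50, 2.21 and 2.55 in shLuc MyoD. It read 2.66, 1.34 and 1.31 in shSix4 empty and 3.15, 2.05 and 1.89 in shSix4 MyoD. Slide 1 was the highest in each group, by 0.74 above the group means on average, and neighbouring groups overlapped. Within slides the MyoD change was positive in 6 of 6 cases, at 0.90, 0.29 and 0.84 in shLuc and 0.49, 0.72 and 0.58 in shSix4.

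The change of Rbfox2 was 0.67 ± 0.48 in shLuc and 0.60 ± 0.48 in shSix4 (adjusted p = 0.504 and 0.879, limma). With the replicate number as a block, which removes the slide, it was called in each line (adjusted p = 0.0131 and 0.0453). The spread within groups fell from an SD of 0.657 to 0.183 once the slide was removed, more than for any other of the 8 factors. The second probe, A_52_P528592, gave 0.58 ± 0.46 and 0.47 ± 0.46 and was called in no setting tried. Its within-slide changes were also all positive, at 0.87, 0.18 and 0.70 in shLuc and 0.32, 0.85 and 0.24 in shSix4. A block also changes the background: 9.89% of all genes were then called higher in shLuc and 5.7% in shSix4, 15.7% and 2.6% were called lower, and of the 8 factors 4 were called higher in each line and 1 lower in shLuc.

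Ptbp1, the repressor of muscle and neuronal exons, read 3.33, 3.70 and 3.37 in shLuc empty and 2.51, 3.29 and 3 in shLuc MyoD by the brighter of its 2 probes. It read 3.54, 3.35 and 3.35 in shSix4 empty and 3.38, 3.38 and 3.10 in shSix4 MyoD. The shLuc groups did not overlap, and the shSix4 groups did. The change was -0.54 ± 0.22 in shLuc (adjusted p = 0.199; 0.0550 with the block) and -0.13 ± 0.22 in shSix4 (adjusted p = 0.995). The second probe gave -0.13 ± 0.30 and -0.18 ± 0.30. Neither probe passed the test, and whether their changes differ in shLuc was not tested.

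**Figure D3:**
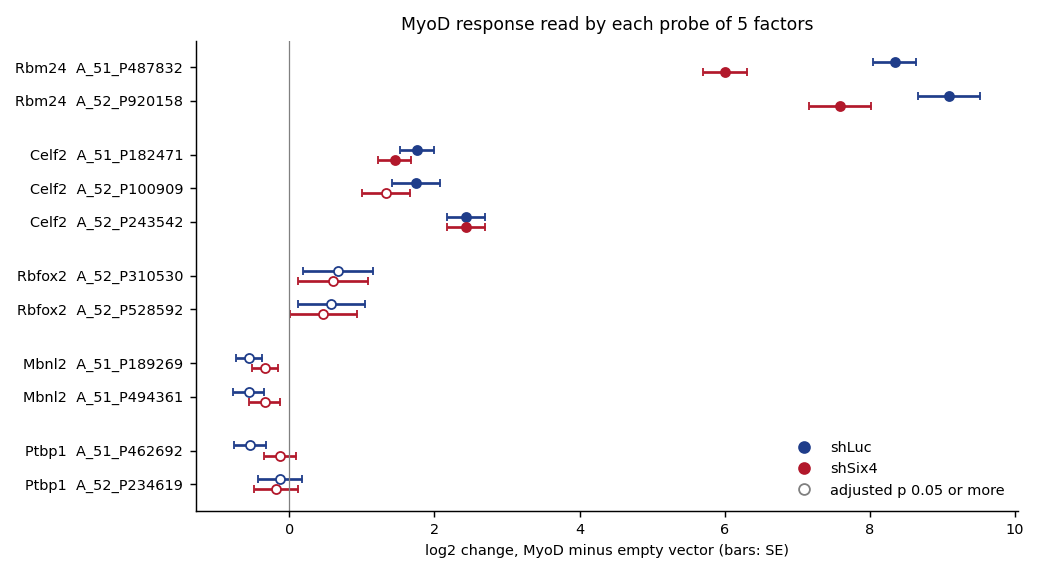
Log2 change from empty vector to MyoD (x axis, bars are standard errors) read by each probe (y axis) of the 5 factors with several tested probes, in shLuc (blue) and shSix4 (red); filled points have an adjusted p under 0.05 over 24000 probes. The 2 Rbm24 probes are drawn at 9.09 and 8.34 in shLuc, the 3 Celf2 probes lie between 1.33 and 2.43, and the probes of Rbfox2, Mbnl2 and Ptbp1 are all open. Of the shLuc empty arrays, 1 of 3 was well above background for the first Rbm24 probe and 0 of 3 for the second. In shSix4 none was for either probe, so the sizes of these rises are not measured.

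Between the lines, no factor passed the test over genes, with MyoD or with the empty vector (0 of 8 each, beside 0.228% and 0.0569% of all genes; limma). At an unadjusted p under 0.05 there were 3 of 8 with MyoD and 0 of 8 with the empty vector, beside 7.8% and 4.45% of all genes. With the block, Rbm24 and Rbm38 were lower in shSix4 MyoD, 2 of 8, beside 2.59% of all genes called lower. With MyoD the array ranges did not overlap for Rbm24 and Celf2, lower in shSix4, and for Mbnl2, higher, 3 of 8 beside 12.1% of all genes. With the empty vector they did not overlap for Mbnl2 alone, beside 8.37%. These ranges are of the brightest probe of each gene. The second Mbnl2 probe overlapped in each of these comparisons, and Celf2 probe A_52_P100909 overlapped with MyoD. The 2 MyoD comparisons and the 2 comparisons of lines share groups of arrays, so they are not independent of each other.

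**Figure D4:**
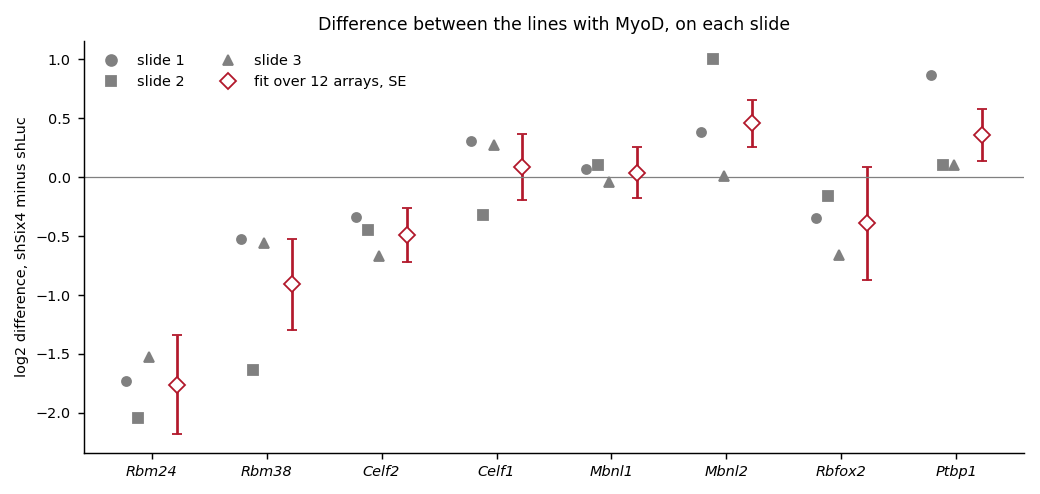
Log2 difference between shSix4 and shLuc with MyoD (y axis) of each factor (x axis) on slides 1 to 3 (grey shapes) and from the fit over 12 arrays with its standard error (red diamonds, all open because no adjusted p over genes was under 0.05). Rbm24 lies at -1.53 to -2.04 on the slides and Celf2 at -0.34 to -0.67, whereas Mbnl2 lies at 0.01 to 1.00.

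Other splicing factors were taken from lists that were not picked by how they moved, though with earlier results of these data known. Of 39 other splicing regulators, 36 had a probe and 26 were tested; 3 were higher with MyoD in shLuc and 1 in shSix4, beside 4.72% and 2.79% of all genes, and none was lower. The 1 of 26 in shSix4 is near that share. Their median change was -0.11 and 0.05, beside -0.14 and -0.06 over all genes. The 3 were Rbfox1, Msi2 and Qk.

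Rbfox1, the RBFOX family member of muscle, heart and neurons, read -7.14, -5.20 and -7.37 in shLuc empty and -2.09, -3.64 and -2.99 in shLuc MyoD. In shSix4 it read -6.85, -6.20 and -5.99 with the empty vector and -4.06, -3.75 and -3.25 with MyoD. It was not well above background on any of the 6 empty-vector arrays and was so on all 6 MyoD arrays. It was therefore tested only through the MyoD groups, where it was high. Its rise was at least 7.56-fold in shLuc (adjusted p = 0.00183) and at least 3.24-fold in shSix4 (adjusted p = 0.0247), and the latter call was lost without any 1 of the 6 shSix4 arrays (adjusted p up to 0.112). With normexp background the changes were 0.78 and 0.30, and neither was called.

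Msi2, a Musashi RNA-binding protein, rose by 1.97 ± 0.28 in shLuc (adjusted p = 0.00113), from -0.44, 0.11 and -0.63 to 1.99, 1.65 and 1.33. In shSix4 the estimate was 1.00 ± 0.28 (adjusted p = 0.117; 0.00828 with the block). Qk, whose QKI protein favours muscle splice forms, rose by 1.59 ± 0.40 in shLuc (adjusted p = 0.0377), from 1.74, 1.74 and 0.90 to 3.68, 2.78 and 2.68. In shSix4 Qk changed by 1.29 ± 0.40 (adjusted p = 0.165; 0.00440 with the block). For each of these genes the MyoD arrays lay above the empty-vector arrays in each line, but the shLuc call of Qk was lost in 11 of 21 alternatives, among them leaving out any 1 of the 6 shLuc arrays (adjusted p up to 0.142).

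General splicing proteins moved little. Of 42 SR and hnRNP proteins, which act on exons in all cells, 39 had a probe and 38 were tested. Of these, 1, Hnrnpul1, was higher with MyoD in shLuc, by 0.83 ± 0.19 (adjusted p = 0.0224, limma), and none was called in shSix4 or between the lines. It was not called with median scaling (0.81, adjusted p = 0.0563) or without any 1 of the 6 shLuc arrays (adjusted p up to 0.0873), and it fell to 0.37 with the mean of its probes (adjusted p = 0.440) and to 0.19 with normexp background. At 1 of 38 the count does not exceed the 4.72% of all genes called higher in shLuc. The changes of the 38 ran from -0.55 to 0.83 in shLuc, with a median of 0.08, and from -0.24 to 0.61 in shSix4, with a median of 0.13. At an unadjusted p under 0.05 there were 2 in shLuc and 1 in shSix4, beside 19.3% and 9.77% of all genes.

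**Figure D5:**
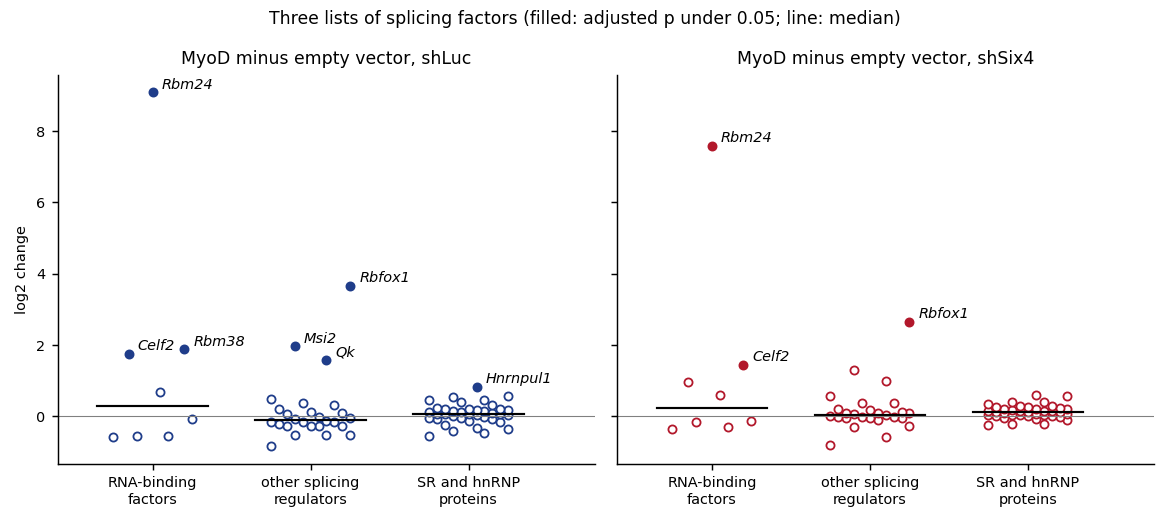
Log2 change from empty vector to MyoD (y axis) in shLuc (left) and shSix4 (right) of the 8 factors, 26 other splicing regulators and 38 SR and hnRNP proteins (x axis; points are genes, spread sideways for legibility, lines are medians, filled and named where the adjusted p was under 0.05). Rbm24 stands far above every other point in each line, Rbfox1 is drawn highest of the other regulators although its height, like that of Rbm24 in shSix4, rests on empty-vector arrays not well above background, and the SR and hnRNP proteins all lie between -0.55 and 0.83.

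Of 20 genes known to have muscle splice forms, 18 were tested, and 11 were higher with MyoD in shLuc and 9 in shSix4, beside 4.72% and 2.79% of all genes, with none lower. The median of the 18 was 1.59 and 1.06, beside -0.14 and -0.06 over all genes. Several of them are muscle genes in their own right, such as Tnnt2 and Tnnt3, which encode cardiac and fast skeletal troponin T, and Ttn, which encodes titin. Tnnt2 changed by 9.08 ± 0.51 in shLuc and 7.60 ± 0.51 in shSix4, and Tnnt3 by 8.82 ± 0.71 and 7.88 ± 0.71. Ttn rose at least 258-fold in shLuc and by 5.70 ± 0.69 in shSix4, and Ryr1, the calcium channel of the muscle reticulum, at least 112-fold and by 5.55 ± 0.91. Pdlim3, a protein of the muscle Z-disc, rose by 5.80 ± 0.92 and 5.97 ± 0.92. In shSix4, 1 of the 3 empty-vector arrays measured Ttn, Ryr1 and Pdlim3, and 2 measured Tnnt3. None of the 18 was called between the lines with MyoD, and 16 had a negative estimate there; 5 were called lower with the block, beside 2.59% of all genes.

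The genes whose levels followed each risen factor most closely over the 12 arrays were ranked by Pearson correlation among 12136 genes, as a description. The arrays fall into MyoD and empty-vector sets, so any gene that moved with MyoD scores high. Rbm24 was closest to Tnnt2 and Chrna1, the muscle acetylcholine receptor subunit (r = 0.996 each), and Tnnc2, fast troponin C (r = 0.994). Celf2 was closest to Traf4 (r = 0.985), Hey1 and Fndc5 (0.982 each). Rbm38 was closest to Cyc1 and Ube2g2 (0.969 each) and Npsr1 (0.967). Among the factors themselves r was 0.950 between Rbm24 and Celf2, 0.853 between Rbm24 and Rbm38, and -0.804 between Celf1 and Rbfox2, all over the same 12 arrays. Celf1 and Rbfox2 also differed by slide, in opposite directions. On slides 1, 2 and 3 Celf1 lay on average -0.32, 0.13 and 0.19 from its group means. Rbfox2 lay 0.74, -0.36 and -0.38 from its own. The part of the slides in this r was not tested.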

How the data were processed

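Each array file that the authors deposited holds Cy3 intensity per spot on a linear scale, background-corrected and detrended by Agilent Feature Extraction (version 11.5.1.1 in the file headers; the submitters' processing notes name 10.5.1.1). The authors also deposited a table of log2 values of the same arrays, already normalized by them; it was used only as an alternative, since it holds 2 of the 8 tested factors. Groups were taken from the sample titles; the description field, which names another cell line against every other label, was set aside. The arrays differ from each other in brightness, which limits what dim probes show: 22318 to 27448 probes were well above background per array.

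From there, spots marked as controls or outliers were left out, log2 intensities were averaged per probe and the 75th percentile of the array was taken off. Probes well above background on all 3 arrays of 1 or more groups were tested, and the brightest kept probe stood for a gene. Genes such as Rbm24, Rbfox1 and Myh3 passed this filter only through the MyoD groups. Names came from RefSeq accessions (24820 of 25268 mRNA accessions matched). limma 3.58.1 in R 4.3.3 was fitted over 12 arrays and 12300 genes with 5 contrasts, Benjamini-Hochberg adjustment and a threshold of 0.05, and a second time over 24000 probes. The fitting code was tested on simulated data with independent noise on each array and no slide effect. That test does not cover the spread that arrays of the same slide share here.

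Deviations of same-numbered arrays from their group means correlated at 0.278 to 0.819 in all 18 pairs, so arrays of the same replicate number, which equals the slide, moved together. Pairs of unlike number ran from -0.733 to 0.498, with 10 of 36 above 0.1, all of them between replicates 2 and 3. Slide 1 was scanned on another day than slides 2 and 3. Alternatives were the replicate block, quantile and median scaling, normexp background (offset 50), other filters on dim probes, limma-trend, outlier-marked spots kept, the mean of a gene's probes, the authors' table and leaving out each array. Normexp used the median spot signal in place of the planned mean signal, which was not used here.

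The members, lists and tests were chosen with earlier results of these data known. Named in the text are all members with every probe; up to 4 genes called in each direction from the lists of other splicing regulators and of SR and hnRNP proteins; the 4 genes with muscle splice forms that changed most in each line; Myog, Myh3, Six4 and Myod1 as checks; and the 3 genes most correlated with each risen member. Of the other marker lists, 1 of 6 tested cardiomyocyte markers, Myh6, was called higher with MyoD in each line (at least 45.6-fold in shLuc) and lower in shSix4 MyoD than in shLuc MyoD, and no tested smooth muscle (4), neuronal (2), leukocyte (3), endothelial (1), epithelial (3) or adipocyte (1) marker was called. With the block, 1 smooth muscle marker was higher and 1 leukocyte and 1 endothelial marker lower with MyoD in shLuc, 1 endothelial marker lower in shSix4, and between the lines with MyoD 2 cardiomyocyte, 1 smooth muscle and 1 epithelial marker were lower and 1 leukocyte marker higher.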

Additional observations from a re-analysis of the deposited data

How the results depend on the processing

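The rises of Rbm24 kept their call in each line in all 20 alternatives that tested it, with values of 4.85 to 9.36 in shLuc and 4.02 to 7.94 in shSix4. It was not tested with the authors' table or with probes above background on all arrays. The second Rbm24 probe kept its call in 18 of 19 alternatives in each line and lost it with normexp. Celf2 kept its call in 21 of 22 alternatives in shLuc and 20 of 22 in shSix4, and Rbm38 in 17 of 21 in shLuc. Signals near background limit what Rbm24, Rbfox1 and Mbnl3 show with the empty vector, and the 3 arrays a group limit the precision of every value. With normexp the calls of Pdlim3 and Ryr1 in each line, Ttn in shSix4, Qk and Myod1 in shLuc and Myh3 between the lines with MyoD were also lost. The authors' table, which holds another Celf2 probe, gave the second Celf2 loss in shSix4. The cause of the changes below was not tested. The slide equals the replicate number and gave no separate alternative. Beyond the results given in the report with their blocked value, among the factors, the other regulators, SR, hnRNP and splice-form genes named with values, and Myog, Myh3, Six4 and Myod1, the block changed no other call, except that Six4 in shLuc (1.05), Tnnt2 (-1.55) and Ttn (-2.21) between the lines with MyoD, and Msi2 there (-1.14), were called with it.

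With MyoD in shLuc, called factors numbered 3, 5 with the replicate block (4 higher, 1 lower), and 1 with normexp background and with the authors' table, where 2 were tested. In shSix4 they numbered 2, 4 with the replicate block, 1 with normexp and with probes above background on all arrays, where 7 were tested, and 0 with the authors' table. Between the lines with MyoD they numbered 0, 2 with the replicate block and 1 with the mean of a gene's probes. Other splicing regulators called in shLuc numbered 3, 1 with normexp, 0 of 4 with the authors' table and 5 with the replicate block; in shSix4 they numbered 1, 0 with normexp, with probes above background on all arrays and with the authors' table, 4 with the replicate block and 2 with the mean of probes; between the lines with MyoD they numbered 0 and 1 with the replicate block. SR and hnRNP proteins called in shLuc numbered 1, 0 with median scaling, normexp and the mean of probes, and 5 with the replicate block. Leaving out 1 array gave 0 to 1 of these in shLuc and 0 to 1 other regulators in shSix4. With the block, 3153 of all 12300 genes were called in shLuc, 1021 in shSix4 and 533 between the lines with MyoD. The 5 of 26 other regulators and 5 of 38 SR and hnRNP proteins called with it in shLuc do not exceed that share.

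Over all genes, calls with MyoD in shLuc numbered 772, 86 with normexp, 457 with probes above background on all arrays, 157 with the authors' table of 2638 genes, 3153 with the replicate block and 496 to 866 without 1 array, the lowest being 496 and 498 without shLuc MyoD replicates 1 and 3. In shSix4 they numbered 356, then 49, 154, 51 and 1021 in the same order. Between the lines with MyoD they numbered 28, 0 with normexp, 2 without a filter and with limma-trend, 6 with probes above background on all arrays, 533 with the replicate block, 50 with the mean of probes and 1 to 46 without 1 array, with 1 call without shLuc MyoD replicate 2 or 3 or shSix4 MyoD replicate 2, 2 without shLuc MyoD replicate 1, 6 without shSix4 MyoD replicate 1, and 17 or 18 without shSix4 empty replicate 3 or shLuc empty replicate 1. With the empty vector they numbered 7, 4 with quantile normalization and with probes above background on all arrays, 3 with median scaling, the authors' table and limma-trend, 0 with normexp, 2 without a filter, 79 with the replicate block and 1 to 8 without 1 array. The difference of responses had 0 calls, 1 with the authors' table and 0 to 1 without 1 array.

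Sign changes occurred in small differences that no setting called. With normexp, the difference between the lines with the empty vector was -0.14 for Celf1, 0.20 for Celf2, 0.39 for Mbnl1, 0.26 for Ptbp1, 0.07 for Rbfox2 and -0.56 for Rbm38; that with MyoD was -0.08 for Celf1; and the difference of responses was 0.06 for Celf1 and -0.17 for Mbnl1. With the empty vector, Celf2 was at 0.06 with the authors' table and Ptbp1 at 0.12 with the mean of its probes. Without 1 array, Celf1 ranged from -0.26 to 0.17 in shLuc, -0.32 to 0.03 in shSix4, -0.16 to 0.26 between the lines with MyoD, -0.02 to 0.35 with the empty vector and -0.33 to 0.11 in the difference of responses. Likewise with the empty vector, Celf2 ranged from -0.33 to 0.02, Ptbp1 from -0.12 to 0.06, Rbm24 from -0.61 to 0.24 (near background in each line, so with no order) and Rbm38 from -0.22 to 0.34. Mbnl1 ranged from -0.04 to 0.12 and Qk from -0.57 to 0.10 between the lines with MyoD, Rbfox2 from -0.47 to 0.37 in the difference of responses, and the second Ptbp1 probe from -0.36 to 0.08 in each line.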
